A study of Homo sapiens with 27 samples.

Results

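Endothelial cells grown for 48 h on matrix left behind by senescent mesenchymal stromal cells (MSCs), labelled ECM/MMC+, were compared with endothelial cells grown without it, labelled control. The comparison uses replicates 2 to 4 of both groups, which is 6 of the 27 RNA-seq libraries in the series. Replicate 1 of each group carries stromal RNA (values below) and is given apart. All 6 cultures were wild-type EA.hy926, an established line and a fusion of human umbilical vein endothelium with A549, a lung carcinoma line, so it has endothelial and epithelial ancestry. The matrix came from ASC52telo, an adipose MSC line immortalised with telomerase. These MSCs had taken mitomycin C, a DNA crosslinker that makes cells senescent, at 1.5 µg/mL for 18 h and were kept for 10 days. They were then removed with 0.5% Triton X-100 and 20 mM NH4OH over 5 min. The control cells met no MSC product. Young matrix, labelled ECM/MMC-, came from the same line without mitomycin C, and senescent medium, labelled CM/MMC+, was conditioned medium of mitomycin-treated MSCs mixed with culture medium for 48 h. Each of these had 3 libraries here, replicates 2 to 4. Both cell types are single lines, so neither stands for several donors. Nothing in the labels says that the replicates were separate cultures, so a p-value here reflects how these libraries vary, and that variation may be technical. The libraries are taken as endothelial, as their cell type label has it, although the extraction text speaks of RNA from MSCs.

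Matrix that stays on the dish after cells are removed holds collagens, fibronectin, proteoglycans and the growth factors bound to them, and endothelial cells attach to it through integrins. Senescent MSCs no longer divide and release inflammatory cytokines, proteases and growth factors, some of which bind to matrix. Endothelial cells answer changes in their substrate and in soluble ligands by altering secreted proteins, cell surface receptors, vasoactive peptides and the plasminogen system, which controls fibrin and matrix breakdown.

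Levels are given in CPM, the count of a gene brought to a common library total, and can be compared between groups for 1 gene but not between genes. Total counts ran from 80594722 to 105949470 in the 6 libraries and from 66320519 to 111512357 in all 27. The endothelial markers PECAM1 and CDH5 were present in all 6, at 404.5 to 629.9 CPM and 193.7 to 301.6 CPM. CLDN5, an endothelial tight junction gene, was at 0 in 5 of the 6 and at 0.0104 CPM in the other, and the epithelial cadherin CDH1 was at 0 in all 6. Of the haematopoietic markers HBB was at 0 in all 6 too. CD14, PTPRC and CD3E reached at most 0.163, 0.117 and 0.0106 CPM in any of the 6. The summed level of 10 stromal markers was 19.7 to 22.2 CPM in controls and 16.3 to 30.0 CPM on senescent matrix. In replicate 1 it was 9203 CPM in the control and 5927 CPM on senescent matrix, as plotted by library for COL1A1, TERT and THY1.

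**Figure D1:**
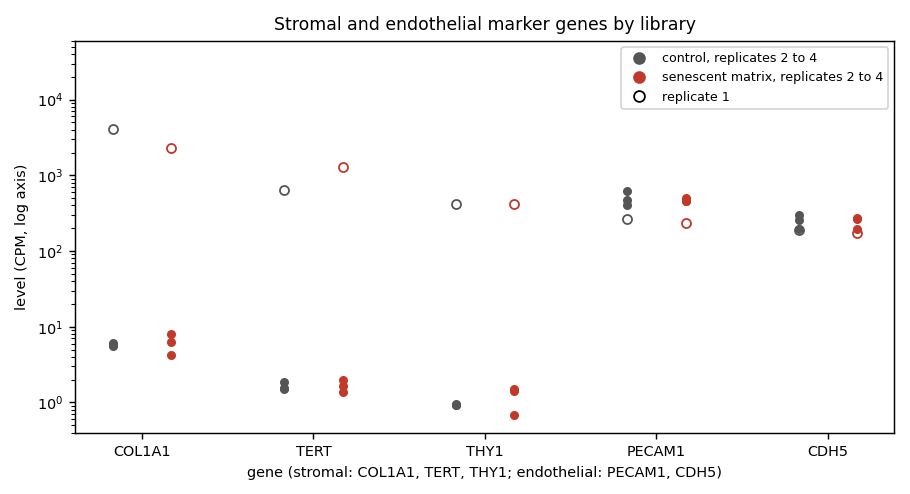
Level in CPM on a log axis of 3 stromal marker genes (COL1A1, TERT, THY1) and 2 endothelial ones (PECAM1, CDH5) in each control and senescent matrix library; filled points are replicates 2 to 4 and open points replicate 1. COL1A1 is at 4035 and 2281 CPM in replicate 1 of the 2 groups and between 4.28 and 8.01 CPM in the 6 libraries compared, while PECAM1 and CDH5 are seen in all of them.

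On senescent matrix, 40 genes were higher and 14 lower than in control. The risen genes include the plasminogen activator inhibitor SERPINB2, the secreted proteins CCN3, WNT16, STC1, CXCL1 and AREG, the prostaglandin enzyme PTGS2, and the receptors S1PR1 and FLT1. The fallen genes include the keratin KRT7, the kinase MYLK2, the adhesion protein AMIGO2 and the vasoactive peptides APLN and EDN1. Of the risen genes 31 were over 2-fold higher, and of the fallen genes 10 were over 2-fold lower. These 54 genes are 0.3% of the 18015 tested (0.222% higher, 0.0777% lower) with edgeR's quasi-likelihood test at a Benjamini-Hochberg adjusted p under 0.05, and 48 of them code for proteins. In all 54 the 3 libraries of 1 group lay above the 3 of the other, which held for 11.9% of all genes tested. Without 1 library the test called 20, 14 and 25 genes (ECM/MMC+ replicates 2, 3 and 4 left out) and 34, 36 and 12 genes (control replicates 2, 3 and 4 left out). SERPINB2, CCN3, CD55, SMIM14, LCN6, ATG9B, MYLK2, FOXS1, TRPM2 and AMIGO2 passed in all 6 of those fits, 17 of the 54 genes passed in none, and the other 27 in some. With the replicate number as a block 200 genes passed, all 54 among them. At an unadjusted p under 0.05 the fit without the block had 1224 genes (6.79%). Adding replicate 1 of every group to the edgeR fit left 0 calls and 584 genes at that unadjusted level. In bulk RNA, fewer cells that express a gene and less RNA of it per cell cannot be told apart.

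**Figure D2:**
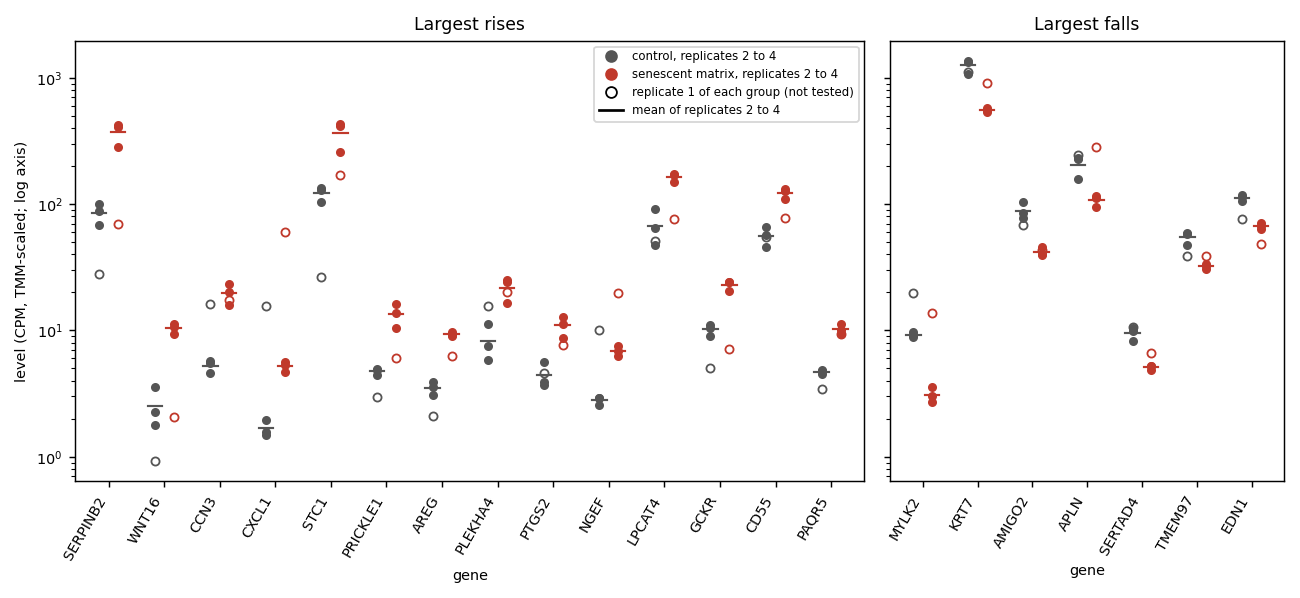
Level in CPM on a log axis of 14 of the 15 protein-coding genes with the largest rises and the 7 with the largest falls that had a mean of at least 5 CPM in a group; filled points are replicates 2 to 4 (grey control, red senescent matrix), bars their mean, and open points replicate 1. For every gene shown the 3 filled red points lie apart from the 3 filled grey ones, for SERPINB2 at 286 to 427 CPM against 68.8 to 99.8 CPM.

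Promoter stretches of 3 called genes are shown because they hold a match to a motif of the factors AP-1 or NF-kB. These factors act downstream of growth factor and inflammatory signals. SERPINB2 and CXCL1 rose and AMIGO2 fell. Being picked for a match, the 3 stretches do not stand for the risen and fallen sets. Each runs from 250 to 11 bases before the RefSeq transcription start, 5′ to 3′ on the gene's strand (RefSeq on GRCh38.p14), and holds no exon. Capitals mark the match, TGANTCA for AP-1 and, for NF-kB, the letters shown with any base in the fifth place, searched on both strands.
SERPINB2: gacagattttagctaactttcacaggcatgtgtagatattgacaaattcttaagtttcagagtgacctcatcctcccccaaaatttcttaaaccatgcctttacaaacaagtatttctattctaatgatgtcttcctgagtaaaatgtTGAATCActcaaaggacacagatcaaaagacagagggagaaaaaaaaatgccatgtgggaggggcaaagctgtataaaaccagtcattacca
AMIGO2: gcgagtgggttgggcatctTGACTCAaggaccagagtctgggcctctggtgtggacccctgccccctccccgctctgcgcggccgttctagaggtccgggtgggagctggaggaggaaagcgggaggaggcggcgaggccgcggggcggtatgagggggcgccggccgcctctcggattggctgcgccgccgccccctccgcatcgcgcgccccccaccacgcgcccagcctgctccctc
CXCL1: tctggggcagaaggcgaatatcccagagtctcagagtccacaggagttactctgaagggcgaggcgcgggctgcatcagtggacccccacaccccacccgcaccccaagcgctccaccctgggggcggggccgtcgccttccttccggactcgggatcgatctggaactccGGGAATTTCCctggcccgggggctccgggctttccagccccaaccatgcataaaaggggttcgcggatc
The SERPINB2 stretch lies at chr18:63887455-63887694, its match beginning 102 bases before the start, and it lies inside the span that GENCODE annotates for the gene, ahead of a later start. That of AMIGO2 lies at chr12:47079962-47080201 on the reverse strand, with the match 231 bases before the start, and that of CXCL1 at chr4:73869143-73869382, with the match 79 bases before it. RefSeq windows were matched for 38 of the 54 genes. The AP-1 letters were found in 2 of 28 risen genes (SERPINB2, ATG9B) and in 1 of 10 fallen genes (AMIGO2), against 6.573% of 35116 promoters of the same length, so their share among the changed genes is near that of promoters in general. The NF-kB letters were found in CXCL1 and in no other of the 38, against 0.527% of promoters. A match describes letters in the window and nothing about binding.

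Of the plasminogen system SERPINB2 rose. SERPINB2 (ENSG00000197632.9, chromosome 18, 63871692 to 63903890, GRCh38) encodes plasminogen activator inhibitor 2, which blocks urokinase and tissue-type activator. It stood at 68.8, 99.8 and 87.8 CPM in control replicates 2, 3 and 4 and at 286, 407 and 427 CPM on senescent matrix. The lowest matrix library was far above the highest control, and the log2 fold change was 2.13 ± 0.24 (SE, n = 3 against 3, adjusted p = 0.00124). In replicate 1 it was 28.0 CPM in the control and 69.2 CPM on matrix, so both were below their group's other libraries but in the same order. Of 21 genes of the plasminogen and coagulation list 1 passed, SERPINB2. The list's median was 0.18 against −0.01 for all genes tested. Above 0 were 12 of 21, against 47.8% of all genes tested, the share to set beside such counts in other lists. ANXA2 and S100A10, which together form a plasminogen receptor on the cell surface, had log2 differences of 0.60 and 0.61 with adjusted p of 0.415 and 0.549, and did not overlap between the groups.

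CCN3, a secreted matricellular protein of the CCN family, was at 5.51, 4.57 and 5.75 CPM in control and 20.1, 23.4 and 15.8 CPM on matrix. Its log2 fold change was 1.90 ± 0.22 (SE, n = 3 against 3, adjusted p = 0.00124), and the groups were well separated. Replicate 1 did not show it, with 16.1 CPM in the control and 17.4 CPM on matrix. It was the only riser among 32 matricellular and small matrix genes, whose median was −0.05 with 13 above 0, and THBS1 in the same list was at 966, 505 and 974 CPM in control against 587, 500 and 403 CPM (log2 −0.72, adjusted p = 0.694). TINAGL1, a secreted matrix protein that was in none of the lists, rose from 78.1 to 115 CPM in control to 177 to 202 CPM (log2 0.89 ± 0.16 SE, adjusted p = 0.0325). TINAGL1 passed in 1 of the 6 fits without 1 library. None of 23 collagens, 23 basement membrane genes or 38 integrin and focal adhesion genes passed, and their medians were 0.16, 0.15 and 0.02. LAMB1 and LAMC1, laminin chains of the basement membrane, stood at log2 differences of 0.16 and 0.26, and ITGA5, the fibronectin receptor chain, at 0.17. Within these matrix lists CCN3 was the single call.

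WNT16, a secreted WNT ligand, was at 1.79, 3.56 and 2.28 CPM in control and 10.6, 11.3 and 9.45 CPM on matrix. The log2 fold change was 2.04 ± 0.33 (SE, n = 3 against 3, adjusted p = 0.0147), though it passed in 2 of the 6 fits without 1 library. WNT16 was the single call among 23 genes of the WNT list, whose median was 0.00 with 12 above 0. DKK1, a secreted WNT antagonist, was at 164, 208 and 187 CPM in control and 188, 208 and 258 CPM on matrix, and CTNNB1, the gene of beta-catenin, differed by −0.07 on the log2 scale. PRICKLE1, a planar cell polarity gene outside the list, rose from 4.95, 4.84 and 4.44 CPM to 13.7, 16.3 and 10.5 CPM (log2 1.50 ± 0.23 SE, adjusted p = 0.00868).

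CXCL1, a neutrophil-attracting chemokine, was at 1.57, 1.97 and 1.49 CPM in control and 5.66, 4.71 and 5.31 CPM on matrix (log2 1.64 ± 0.32 SE, adjusted p = 0.0431). It passed in none of the 6 fits without 1 library, although its groups did not overlap. Replicate 1 had higher levels in both groups, 15.7 CPM in the control and 60.5 CPM on matrix. CXCL8, a related chemokine, was at 5.52, 13.5 and 7.92 CPM in control and 15.9, 21.5 and 20.7 CPM on matrix, and did not pass (log2 1.11, adjusted p = 0.339). CCL2, which attracts monocytes, lay at 13.9 to 21.8 CPM in control and 12.1 to 15.8 CPM on matrix. Of 13 chemokine genes 1 passed, with a median of 0.52 and 10 above 0. None of 17 NF-kB feedback and adhesion genes passed, with a median of 0.36 and 14 above 0; NFKBIA, the inhibitor that NF-kB itself induces, was at 44.9, 45.7 and 36.2 CPM against 65.9, 80.6 and 59.8 CPM (log2 0.70, adjusted p = 0.149). Both lists thus had medians above that of all genes while holding a single called gene.

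Of 37 cytokines and secretory factors 2 rose, STC1 and PTGS2, with a list median of 0.26 and 29 above 0. STC1, a secreted glycoprotein that regulates calcium and phosphate, was at 134, 130 and 104 CPM in control and 415, 429 and 261 CPM on matrix (log2 1.58 ± 0.29 SE, adjusted p = 0.0321). It passed in 1 of the 6 fits without 1 library, and its replicate 1 pair was 26.5 and 172 CPM. PTGS2, the inducible cyclooxygenase of prostaglandin synthesis, was at 3.67, 5.68 and 3.88 CPM in control and 11.2, 12.9 and 8.72 CPM on matrix (log2 1.31 ± 0.19 SE, adjusted p = 0.00625). It passed in 4 of the 6 fits. CD55, which protects cells from complement, rose from 46.1, 65.7 and 57.5 CPM to 110, 127 and 132 CPM (log2 1.13 ± 0.16 SE, adjusted p = 0.00557). Its lowest matrix library was well above its highest control.

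AREG, a ligand of the EGF receptor, was at 3.54, 3.93 and 3.10 CPM in control and 8.97, 9.29 and 9.75 CPM on matrix. The log2 fold change was 1.41 ± 0.22 (SE, n = 3 against 3, adjusted p = 0.0111), with a call in 3 of the 6 fits without 1 library. It was the single call among 13 genes of the EGF receptor list; the median was 0.27 and 10 were above 0. NRG1, another ligand of the family, was at 203 to 211 CPM in control and 239 to 270 CPM on matrix, and ERRFI1, a feedback inhibitor of the receptor, at 61.0 to 73.5 CPM and 82.8 to 90.3 CPM. These did not overlap and did not pass (adjusted p = 0.749 and 0.694). SPRY2, a feedback inhibitor of receptor tyrosine kinase signalling to ERK, rose from 62.5, 58.4 and 48.6 CPM to 116, 113 and 91.6 CPM (log2 0.92 ± 0.18 SE, adjusted p = 0.0442) and passed in none of the 6 fits. It was the only call among 33 immediate early and MAPK feedback genes, with a median of 0.27 and 27 above 0. FOSL1, a subunit of AP-1, overlapped between groups, at 453, 267 and 393 CPM in control and 528, 538 and 440 CPM on matrix.

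**Figure D3:**
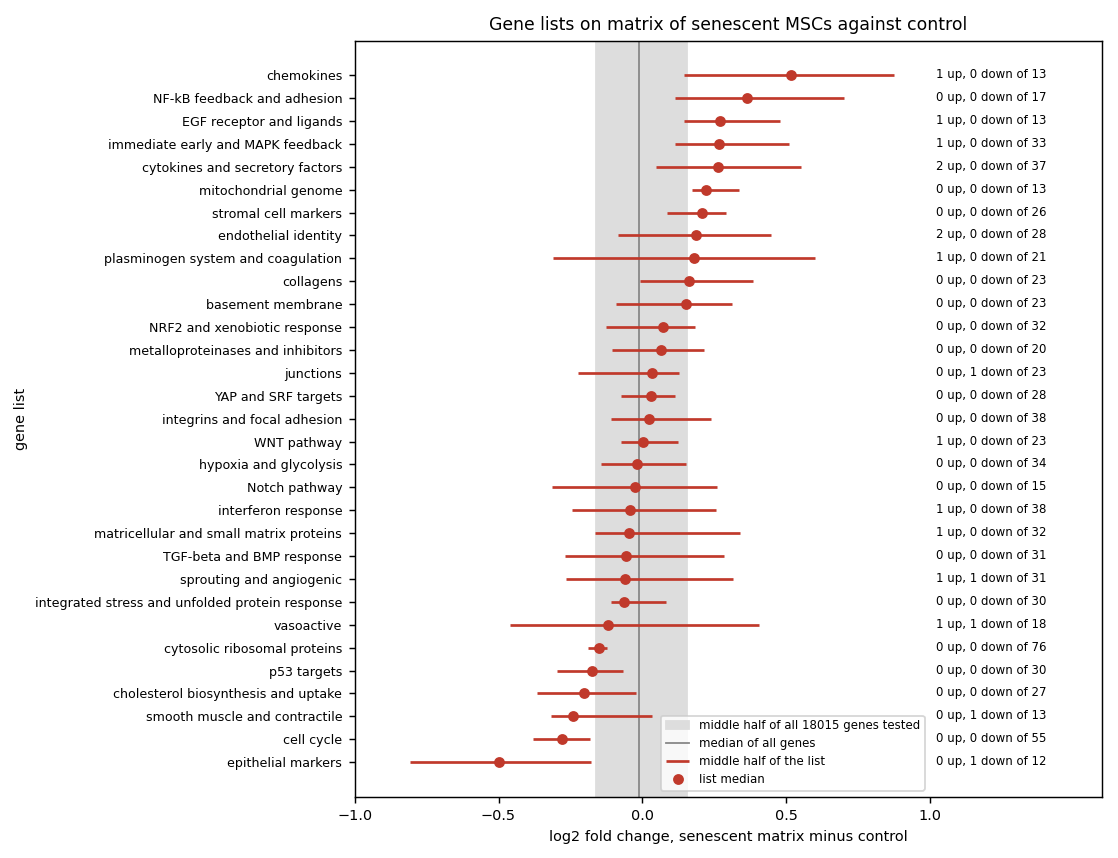
Median log2 fold change, senescent matrix minus control, of each gene list with at least 10 genes tested (points), the middle 50 percent of its genes (lines) and the middle 50 percent and median of all 18015 genes (grey band and line); the text at the right counts genes past the threshold. Medians run from −0.50 for epithelial markers to 0.52 for chemokines, with at most 2 called genes in a list.

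Of 28 endothelial identity genes 2 rose and 0 fell, with a median of 0.19 and 19 above 0. S1PR1, the sphingosine-1-phosphate receptor that stabilises the endothelial barrier, was at 82.4, 74.2 and 76.2 CPM in control and 161, 178 and 125 CPM on matrix (log2 0.99 ± 0.19 SE, adjusted p = 0.038). Its divergent non-coding neighbour S1PR1-DT, which starts 337 bases away on the other strand, rose by a like amount (log2 1.01, adjusted p = 0.0442). FLT1, a VEGF receptor, was at 9.28, 12.7 and 11.5 CPM in control and 20.1, 18.1 and 20.4 CPM on matrix (log2 0.81 ± 0.16 SE, adjusted p = 0.0491). FLT1 passed in none of the 6 fits without 1 library, and S1PR1 and S1PR1-DT in 1 each. CDH5, the endothelial cadherin, differed by −0.05 on the log2 scale, ENG, a TGF-beta co-receptor, by −0.13, and TIE1, an endothelial receptor tyrosine kinase, by 0.23. The levels of these 3 overlapped between the groups.

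NOS3, the endothelial nitric oxide synthase, had a large difference that did not pass. It was at 610, 305 and 383 CPM in control and 1429, 1785 and 876 CPM on matrix (log2 1.65 ± 0.38 SE, adjusted p = 0.1004). The groups did not overlap, but each spread about as widely as a 2-fold range. ATG9B, an autophagy gene on the opposite strand of chromosome 7 (151012209 to 151024499) that overlaps the end of NOS3 (150990995 to 151014588), rose from 0.117, 0.0618 and 0.117 CPM to 0.625, 0.740 and 0.351 CPM (log2 2.50 ± 0.36 SE, adjusted p = 0.00625). The strand setting of the counting is not given in the sources used here, so reads of ATG9B and NOS3 cannot be told apart in the shared stretch.

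Peptides that act on vessel tone and sprouting, EDN1 and APLN, fell. EDN1, the vasoconstrictor endothelin-1, was at 105, 119 and 114 CPM in control and 71.6, 63.8 and 67.3 CPM on matrix (log2 −0.74 ± 0.14 SE, adjusted p = 0.0402). APLN, the tip cell peptide apelin, was at 233, 157 and 227 CPM in control and 116, 111 and 94.7 CPM on matrix (log2 −0.95 ± 0.17 SE, adjusted p = 0.0321). Neither overlapped between groups, EDN1 passed in none and APLN in 1 of the 6 fits without 1 library, and in replicate 1 APLN went the other way, with 246 CPM in the control and 285 CPM on matrix. Of 18 vasoactive genes 1 rose (PTGS2) and 1 fell (EDN1), with a median of −0.12, and of 31 sprouting and angiogenic genes 1 rose (FLT1) and 1 fell (APLN), with a median of −0.06. ESM1, a marker of sprouting endothelium, overlapped at 218 to 320 CPM in control and 318 to 383 CPM on matrix. None of 15 Notch pathway genes passed, with a median of −0.03; the ligand JAG1 was at 35.7 to 62.1 CPM in control and 77.9 to 84.3 CPM on matrix (log2 0.66, adjusted p = 0.642).

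KRT7, an epithelial keratin, was at 1367, 1075 and 1348 CPM in control and 535, 575 and 561 CPM on matrix. The 3 matrix libraries lay close together and well below control, with a log2 fold change of −1.19 ± 0.18 (SE, n = 3 against 3, adjusted p = 0.00821) and a call in 4 of the 6 fits without 1 library. The replicate 1 pair was 1114 and 917 CPM. The keratin KRT18 was at 745, 623 and 692 CPM against 420, 406 and 357 CPM (log2 −0.80, adjusted p = 0.0735). The keratin KRT8 was at 318, 291 and 366 CPM against 206, 224 and 224 CPM (log2 −0.58, adjusted p = 0.227). KRT18 and KRT8 did not pass and did not overlap between the groups. Both have near-identical pseudogene copies that the counting could split. KRT7 was the single call among 12 epithelial markers tested, the median was −0.50 and 1 of 12 was above 0. With the replicate block 3 of the 12 were called lower and 0 higher, against 53 lower and 147 higher of all 18015 genes. The summed level of the list was 2557, 2083 and 2550 CPM in control and 1235, 1284 and 1214 CPM on matrix. EPCAM, an epithelial adhesion gene, overlapped between the groups at 0.830 to 1.10 CPM in control and 0.840 to 1.06 CPM on matrix.

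MYLK2, a myosin light chain kinase known from skeletal muscle, was at 9.27, 8.84 and 9.68 CPM in control and 3.58, 3.03 and 2.71 CPM on matrix (log2 −1.58 ± 0.19 SE, adjusted p = 0.00124). FOXS1, a forkhead transcription factor, was at 1.69, 1.29 and 1.64 CPM in control and 0.146, 0.351 and 0.185 CPM on matrix (log2 −2.78 ± 0.32 SE, adjusted p = 0.00124). The 2 genes are neighbours on chromosome 20, MYLK2 at 31819308 to 31834689 and FOXS1 at 31844301 to 31845619 on the other strand, 9612 bases apart. In replicate 1 MYLK2 was 19.8 CPM in the control and 13.9 CPM on matrix, and FOXS1 was 8.19 and 9.31 CPM, so that pair did not show the fall of FOXS1. MYLK2 was the single call among 13 smooth muscle and contractile genes (median −0.24, 5 above 0), and TPM1, an actin-binding tropomyosin, overlapped at 204 to 280 CPM and 197 to 229 CPM.

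AMIGO2, a cell surface adhesion protein, was at 84.9, 104 and 77.6 CPM in control and 45.9, 39.7 and 40.6 CPM on matrix (log2 −1.08 ± 0.14 SE, adjusted p = 0.00269), and 68.2 and 43.5 CPM in replicate 1. It was the single call among 23 junction genes, with a list median of 0.03. TRPM2, a calcium-permeable channel gated by ADP-ribose, was at 4.41, 4.09 and 4.59 CPM in control and 1.29, 0.965 and 1.40 CPM on matrix (log2 −1.84 ± 0.21 SE, adjusted p = 0.00124). In the replicate 1 pair TRPM2 was 4.14 CPM in the control and 2.96 CPM on matrix, the same order as in the groups. PLPP4, a lipid phosphate phosphatase, fell from 3.99, 4.53 and 4.84 CPM to 1.91, 1.82 and 1.62 CPM (log2 −1.33), and SLC38A4, an amino acid transporter, from 1.36, 2.60 and 2.34 CPM to 0.77, 0.602 and 0.858 CPM (log2 −1.49). TMEM97, a sterol-regulated protein of the endoplasmic reticulum, fell from 47.3 to 59.5 CPM to 30.6 to 33.8 CPM (log2 −0.77, adjusted p = 0.0276), while none of 27 cholesterol synthesis and uptake genes passed (median −0.20, 6 above 0). SERTAD4 fell from 8.30 to 10.5 CPM to 4.85 to 5.26 CPM (log2 −0.90), and the non-coding CASC15 and TIAM1-AS1 fell by 1.16 and 1.49 on the log2 scale. FAM120B had the largest fall by fold, −3.33 on the log2 scale, from 1.27, 1.72 and 0.202 CPM in control. The last of these was near the 0.0937 to 0.113 CPM on matrix, and replicate 1 of the control was at 0.136 CPM. SERTAD4 and TIAM1-AS1 passed in none of the 6 fits without 1 library. TMEM97, SLC38A4, CASC15 and FAM120B each passed in 1 of these fits, and PLPP4 in 4.

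Several risen genes act on membranes, lipids or glycans. LPCAT4, a lysophospholipid acyltransferase, rose from 91.1, 47.7 and 64.3 CPM to 172, 169 and 150 CPM (log2 1.27 ± 0.25 SE, adjusted p = 0.0442). PLEKHA4, a phosphoinositide-binding protein, rose from 11.3, 5.85 and 7.47 CPM to 24.9, 24.0 and 16.4 CPM (log2 1.40 ± 0.27 SE, adjusted p = 0.0448). GALNT12 and ST6GALNAC1, enzymes of O-linked glycan synthesis, rose by 1.65 and 1.29 on the log2 scale, from at most 1.80 and 2.14 CPM in control to at least 3.32 and 4.08 CPM. GALNT12, LPCAT4 and PLEKHA4 each passed in 1 of the 6 fits without 1 library, and ST6GALNAC1 in none. PAQR5, a membrane progesterone receptor, rose from 4.51, 4.83 and 4.78 CPM to 10.1, 11.3 and 9.44 CPM (log2 1.12 ± 0.17 SE, adjusted p = 0.00717) and was 3.44 and 9.31 CPM in replicate 1. SMIM14, a small membrane protein, rose from 38.2, 39.5 and 40.2 CPM to 77.8, 82.5 and 92.5 CPM (log2 1.10 ± 0.14 SE, adjusted p = 0.00269), with tight groups, but its replicate 1 pair was 35.1 and 28.0 CPM.

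Other rises were in enzymes, adaptors and genes of low level. CTSL, the lysosomal protease cathepsin L, rose from 115, 125 and 110 CPM to 238, 236 and 226 CPM (log2 1.00 ± 0.17 SE, adjusted p = 0.0207). DPP4, a cell surface dipeptidase, rose from 5.70 to 6.33 CPM to 11.7 to 13.7 CPM (log2 1.09, adjusted p = 0.0448). In replicate 1 DPP4 went the other way, with 4.44 CPM in the control and 3.46 CPM on matrix. LMO7, an actin-associated LIM protein, went from 116 to 134 CPM to 234 to 262 CPM (log2 1.01, adjusted p = 0.0321), but was lower on matrix in replicate 1, with 183 and 125 CPM. NGEF rose by 1.29 ± 0.20 (SE) and GCKR, the glucokinase regulator, by 1.16 ± 0.23 (SE) on the log2 scale. GCKR, DPP4 and LMO7, and OAS1, STPG1 and NIPAL3 below, passed in none of the 6 fits without 1 library. CTSL passed in 1 and NGEF in 4 of them. The lipocalins LCN6 and LCN10, neighbours on chromosome 9 with 655 bases between them, rose from 0.787 to 0.886 CPM to 3.23 to 4.24 CPM and from 0.117 to 0.226 CPM to 1.39 to 2.06 CPM. STPG1 and NIPAL3 on chromosome 1, whose ends overlap on opposite strands, rose by 0.84 and 0.88 on the log2 scale and cannot be told apart in the overlap. OAS1, an interferon-induced enzyme, rose from 31.8, 35.5 and 36.1 CPM to 50.6, 63.9 and 56.6 CPM (log2 0.72, adjusted p = 0.038), but was the single call among 38 interferon response genes (median −0.04), and it was 28.7 and 26.3 CPM in replicate 1. Of the 54 genes, 9 had a mean under 1 CPM over the 6 libraries.

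Proliferation genes gave no call but were nearly all slightly lower. Of 55 cell cycle genes 0 passed, the median was −0.28 and 3 were above 0, against 47.8% of all genes tested. PCNA, the DNA polymerase clamp, was at 501, 715 and 586 CPM in control and 425, 431 and 515 CPM on matrix, TPX2, a spindle protein, at 449 to 572 CPM and 408 to 433 CPM, and CDK4 at 428 to 517 CPM and 348 to 407 CPM. The summed level of the list was 9068 to 10160 CPM in control and 7717 to 8532 CPM on matrix, with no overlap. None of 30 p53 targets passed (median −0.17, 5 above 0), and CDKN1A, the p53-induced cell cycle inhibitor, overlapped at 241 to 283 CPM and 245 to 335 CPM. None of 76 ribosomal protein genes passed (median −0.15, 2 above 0), nor of 13 mitochondrial genes (median 0.22, 11 above 0). The share of counts on ribosomal protein genes moved beside these lists, with 6.89 to 10.2% in control and 6.47 to 7.84% on matrix, highest in control replicate 3. The mitochondrial share was 1.88 to 3.2% in control and 2.22 to 3.65% on matrix, and the part of either in the lists' medians was not tested.

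The remaining lists held no called gene. Medians were 0.06 over 20 metalloproteinases and inhibitors, 0.03 over 28 YAP and SRF targets, −0.06 over 31 TGF-beta and BMP response genes, −0.02 over 34 hypoxia and glycolysis genes, −0.06 over 30 integrated stress and unfolded protein response genes, and 0.07 over 32 NRF2 and xenobiotic response genes. MMP1, the interstitial collagenase, was at 3799, 4210 and 3676 CPM in control and 6102, 6474 and 5599 CPM on matrix (log2 0.64 ± 0.14 SE, adjusted p = 0.086), with no overlap. MMP2, a gelatinase, was at 771, 474 and 735 CPM in control and 466, 475 and 327 CPM on matrix (log2 −0.65, adjusted p = 0.358). The 26 stromal markers tested had a median of 0.21 with 22 above 0 and no call, and COL5A2, a fibrillar collagen chain, differed by 0.38 on the log2 scale. Of 12 haematopoietic markers 3 had enough counts to be tested and 0 passed (median 0.29).

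The replicate 1 pair, which took no part in the test, went the same way as the group difference for 33 of the 40 risen genes and for 11 of the 14 fallen ones. Over all genes tested 49.7% were higher on matrix in that pair and 50.3% lower. Its stromal marker sums of 9203 and 5927 CPM differ between the 2 libraries, and their part in these levels was not tested.

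Whether senescence of the MSCs changes what their matrix does is asked by setting ECM/MMC+ against young matrix, ECM/MMC-, without the control. SERPINB2 was at 286, 407 and 427 CPM on senescent and 307, 394 and 351 CPM on young matrix, a log2 difference of 0.09 with a 95% interval from −0.40 to 0.58. KRT7 was at 535, 575 and 561 CPM on senescent and 490, 598 and 452 CPM on young matrix, a difference of 0.12 with an interval from −0.26 to 0.49. Across all genes 0 passed (0% of 18015) with edgeR, 141 had an unadjusted p under 0.05 (0.783%), and DESeq2 also called 0, with 114 at an unadjusted p under 0.05. These libraries are few, so the intervals bound the difference and do not show that the matrices act alike.

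Among the 54 genes the median absolute difference between senescent and young matrix was 0.10 on the log2 scale, and the median half-width of its 95% interval was 0.45. The largest was −0.76 for FAM120B, at 0.0937 to 0.113 CPM on senescent and 0.147 to 0.218 CPM on young matrix. SLC38A4 was the 1 gene of the 54 whose interval left out 0, at 0.77, 0.602 and 0.858 CPM on senescent and 0.486, 0.343 and 0.516 CPM on young matrix (0.73, interval from 0.16 to 1.30), and it did not pass over all genes. STC1, with 481, 395 and 499 CPM on young matrix, differed by −0.32 (interval from −0.91 to 0.28), and PTGS2, with 13.8, 12 and 14.5 CPM, by −0.29 (interval from −0.68 to 0.10). CXCL1 was at 5.93, 4.81 and 3.54 CPM and EDN1 at 66.6, 59.4 and 47.3 CPM on young matrix, with differences of 0.13 and 0.23 whose intervals held 0. The genes with the smallest p were of low level and did not code for proteins: the pseudogenes TCEA1P2 and SSX8P, 2 antisense transcripts, ENSG00000273888.1 and ENSG00000267436, and XACT. TCEA1P2 was at 1.72, 1.91 and 2.63 CPM on senescent and 3.93, 2.93 and 11.5 CPM on young matrix (log2 −1.54, unadjusted p = 0.00198, adjusted p = 1), set largely by 1 young library.

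**Figure D4:**
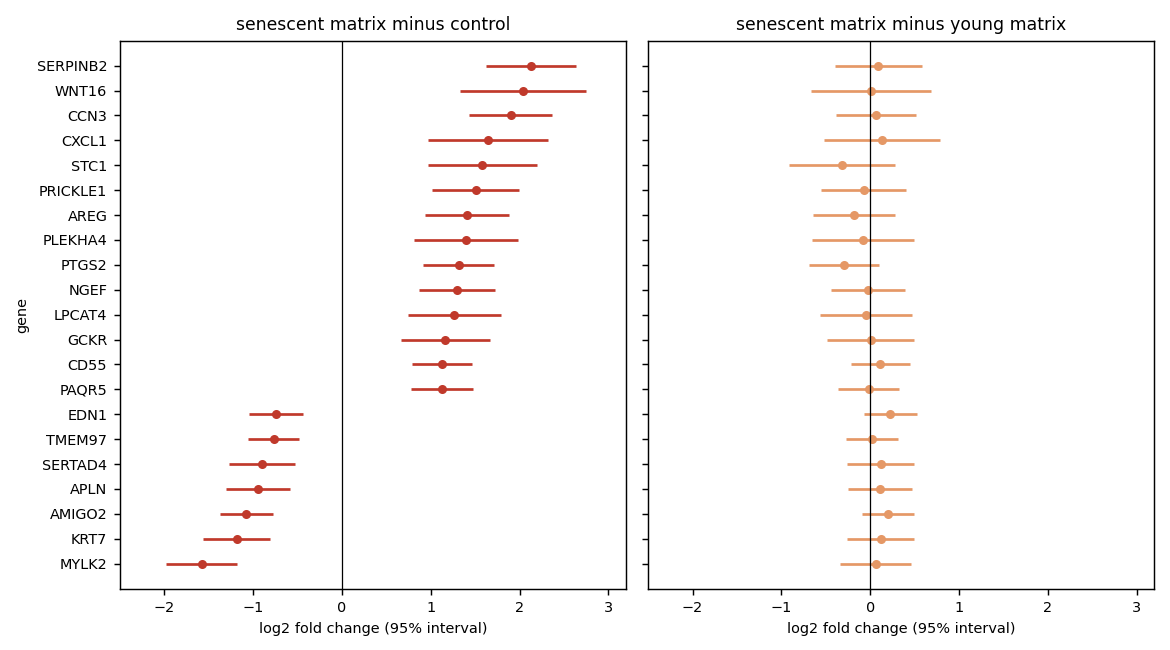
Log2 fold changes with 95% intervals of the 21 genes plotted by level for the largest rises and falls for senescent matrix minus control (left) and senescent matrix minus young matrix (right), on the same axis; both panels use the senescent matrix libraries. On the right every interval holds 0, with STC1 at −0.32 and EDN1 at 0.23 as the widest differences on either side.

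Senescent matrix was also set against conditioned medium of senescent MSCs, which asks where levels differ between the 2 exposures. It cannot show whether both act on the same genes, since medium was not tested against control here. Of 18015 genes 496 were higher on ECM/MMC+ than in CM/MMC+ and 386 lower, 4.9% in all (2.75% higher, 2.14% lower). Same-numbered libraries of these 2 groups deviate together, and with the replicate number as a block 800 were higher and 628 lower (7.93% in all, 4.44% higher and 3.49% lower), with all 882 among them. This comparison and the one with control share the ECM/MMC+ libraries, so values are given side by side. SERPINB2 was at 286, 407 and 427 CPM on matrix, 68.8, 99.8 and 87.8 CPM in control and 18.9, 22.6 and 11.2 CPM in medium, a log2 difference of 4.40 between matrix and medium. WNT16 was at 0.941, 0.799 and 0.249 CPM in medium (3.97), AREG at 1.25, 1.23 and 0.676 CPM (3.14), CCN3 at 3.62, 2.94 and 1.85 CPM (2.80) and STC1 at 70.4, 70.6 and 28.0 CPM (2.70). Each of these had its highest levels on matrix and its lowest in medium, with control between.

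Among the fallen genes, KRT7 reached 2673, 2550 and 3337 CPM in medium, against 1075 to 1367 CPM in control and 535 to 575 CPM on matrix (log2 −2.37 for matrix minus medium). MYLK2 reached 25.1, 26.7 and 30.3 CPM in medium (−3.15), FOXS1 5.07, 4.98 and 7.76 CPM (−4.74) and EDN1 205, 212 and 241 CPM (−1.71). Control again lay between matrix and medium for all of these. TRPM2, at 4.80, 5.45 and 5.31 CPM in medium, lay just above the 4.09 to 4.59 CPM of control. OAS1 and FLT1 rose on matrix against control but did not pass against medium (edgeR adjusted p = 0.323 and 0.131). With the replicate block the adjusted p was 0.133 and 0.0927. In medium OAS1 stood at 41.5, 46.2 and 50.8 CPM and FLT1 at 15.5, 14.4 and 12.1 CPM. CXCL1 was at 2.55, 1.81 and 1.28 CPM in medium, a range that holds its control levels.

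Genes with a wide gap between matrix and medium also included some that missed the threshold against control. THBD, the endothelial thrombin receptor thrombomodulin, was at 716, 772 and 550 CPM on matrix, 342, 128 and 241 CPM in control and 210, 154 and 76.8 CPM in medium (log2 2.2 against medium, 1.51 with adjusted p = 0.12 against control). ABI3BP, a matrix protein, was at 73.2, 65.1 and 45.9 CPM on matrix, 20.3, 9.61 and 17.7 CPM in control and 14.2, 8.45 and 6.39 CPM in medium (2.65 against medium, 1.94 with adjusted p = 0.0518 against control). CIITA, the regulator of MHC class II genes, and LYPD5 were 2.18 and 2.44 higher on matrix than in medium on the log2 scale, and against control they differed by 0.79 and 2.08 (adjusted p = 0.678 and 0.0503). SNAI1, a transcription factor of mesenchymal transition, was at 8.85, 8.86 and 8.37 CPM on matrix, 20.3, 10.5 and 19.6 CPM in control and 48.7, 43.9 and 56.0 CPM in medium (−2.52 against medium). HES1, a Notch target, HIC1, DDIT4, the junction gene JUP, the enamel protein gene AMTN and the growth factor PDGFB were lower on matrix than in medium by log2 differences from −2.92 for AMTN to −2.23 for PDGFB. Among these genes that were lower on matrix, SNAI1 had the smallest adjusted p against control (−0.96, adjusted p = 0.134).

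**Figure D5:**
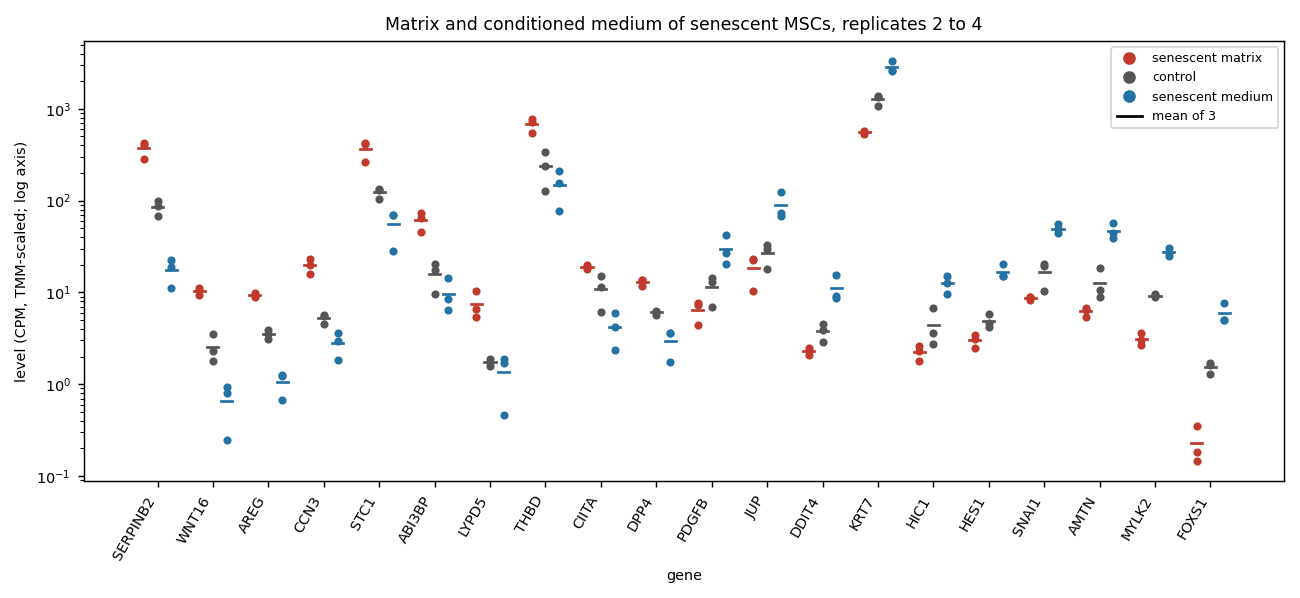
Level in CPM on a log axis, by library, of the 10 genes most above and the 10 most below conditioned medium on senescent matrix; red is senescent matrix, grey control and blue senescent medium, with the mean of 3 libraries as a bar. For SERPINB2, WNT16, AREG and CCN3 the order is matrix, control, medium from high to low, and for KRT7, MYLK2 and FOXS1 it is the reverse.

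In the fit without the block, called genes of the lists lay in both directions, against 2.75% higher and 2.14% lower among all genes. Of 12 epithelial markers 5 were lower on matrix and 0 higher (median −0.52), and of 31 sprouting and angiogenic genes 2 were higher and 8 lower (median −0.19). Of 33 immediate early and MAPK feedback genes 6 were higher and 0 lower (median 0.09), and of 32 NRF2 and xenobiotic response genes 6 were higher and 1 lower (median 0.30). Of 28 endothelial identity genes 4 were higher and 3 lower (median −0.18). Of 30 p53 targets 0 were higher and 5 lower, and of 55 cell cycle genes 0 and 4. Of 23 junction genes 1 was higher and 4 lower. Of 17 NF-kB feedback and adhesion genes 4 were higher and 1 lower, and of 13 EGF receptor genes 3 and 0. Some lists were balanced, with 4 higher and 4 lower of 21 plasminogen and coagulation genes and 5 and 5 of 37 cytokines and secretory factors. Calls were 2 and 2 each in 23 collagens, 38 integrin and focal adhesion genes and 20 metalloproteinases and inhibitors. None of 76 ribosomal protein genes or 13 mitochondrial genes passed. With the replicate block, under which 4.44% of all genes were higher and 3.49% lower, the sprouting list had 4 higher and 11 lower. The plasminogen list had 7 and 5, the cytokine list 9 and 5, and the endothelial identity list 5 and 5. The p53 list had 2 and 6, the cell cycle list 0 and 7, the junction list 2 and 4 and the epithelial list 0 and 5. The NF-kB list had 5 and 2, the EGF receptor list 4 and 1, the immediate early list 7 and 0 and the NRF2 list 7 and 1. Collagens had 2 and 3. The median of all genes tested was −0.01. Stromal marker sums were 16.3 to 30.0 CPM on matrix and 20.0 to 24.8 CPM in medium, with COL1A1 at 4.28 to 8.01 and 5.42 to 6.95 CPM. Leaving out CM/MMC+ replicate 4 gave 411 calls and leaving out ECM/MMC+ replicates 2, 3 or 4 gave 547, 510 and 541, against 882, and with replicate 1 of every group included the count was 122.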

How the data were processed

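RNA of EA.hy926 cells was sequenced from poly(A) libraries whose kit keeps strand, per the labels' protocols. Per the submitters' processing notes the tools were HISAT2 2.2.1 (alignment, GRCh38 or hg38) and featureCounts 2.0.1 (counting). For the strand setting and the annotation release: not given in the sources used here. As deposited by the authors, the values are raw counts for 60648 gene entries; 44 Y copies of pseudoautosomal genes, with 109832 counts, were left out. No library pair of a group agreed within sampling noise.

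Replicates 2 to 4 of control, ECM/MMC-, ECM/MMC+, CM/MMC- and CM/MMC+ (15 libraries) were fitted together in edgeR 4.0.16 (R 4.3.3) with filterByExpr at a minimum of 10 counts, TMM scaling, glmQLFit and 2-sided glmQLFTest, with Benjamini-Hochberg adjustment over 18015 genes and a threshold of 0.05. The steps were checked on simulated counts. Levels are CPM scaled by TMM over all 27 libraries; replicate 1 log2 differences used a pseudocount of 0.5 CPM, and log2 fold changes carry the standard error of the fit. Positions and biotypes are from GENCODE 29. Named genes are the 15 protein-coding genes with the largest rise and fall, at least 5 CPM in a group and no overlap. Named too are every called gene of 32 lists, up to 4 examples a list and the 5 genes nearest a call against ECM/MMC-. The 10 most apart on each side from CM/MMC+ were picked by the first rule, applied to that comparison. The remaining called genes were added after their values were seen. Some genes that meet the rule are not reported here. Members and lists were chosen with earlier results of these data known. The labels do not say what a replicate number stands for. Deviations from the group means of ECM/MMC+ and CM/MMC+ libraries with the same number correlated at r = 0.495, 0.286 and 0.415, each over 0.1, and all 3 libraries of either group correlated best with their own number, so these groups are treated as paired and their blocked counts are given; this held for neither control nor ECM/MMC- with ECM/MMC+. Alternatives were other sets of libraries, DESeq2 1.42.0, other scalings and filters, the replicate number as a block and leaving out each library; leaving out ribosomal and mitochondrial genes was chosen after seeing the data. Total counts of 80594722 or more in each of the 6 libraries set the counting error.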

Additional observations from a re-analysis of the deposited data

Results flagged for a closer look

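In both groups replicate 1 stood far from the other 3 libraries in the levels of stromal markers. In control replicate 1 the stromal marker sum was 9203 CPM against 19.7 to 22.2 CPM in the others, COL1A1 was 4035 CPM, TERT 633.6 CPM and THY1 413.4 CPM, and the stromal list took 1.341% of counts against 0.1439 to 0.2344%. In ECM/MMC+ replicate 1 the sum was 5927 CPM against 16.3 to 30.0 CPM, COL1A1 was 2281 CPM, TERT 1274 CPM and THY1 415.1 CPM, and the list took 0.9368% of counts. The haematopoietic marker sum was also highest there, at 0.9552 CPM in control replicate 1 and 1.627 CPM in ECM/MMC+ replicate 1. The epithelial marker sum was 1897 CPM in ECM/MMC+ replicate 1 against 1143 to 1206 CPM in the others. Chance sets apart about 1 in 20 such groups of 4, and 28 measures were looked at, several of which share genes. Replicate 1 was set apart beforehand because it carries stromal RNA, so its stromal values here restate that choice and test nothing.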

How the results depend on the processing

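For senescent matrix against control, 54 genes passed. The count was 31 with only the 2 groups fitted, 146 with all 7 groups, 234 with DESeq2, 290 without a filter and 0 with replicates 1 to 4 (584 at an unadjusted p under 0.05). Leaving out 1 library gave 12 to 36. Scaling by RLE, upper quartile or total counts gave 53, 50 and 58, and none of the 54 changed direction under any alternative that tested it. ENG, which was not called, went from −0.13 to 0.06 with replicates 1 to 4 and the block. The replicate block gave 200 genes, all 54 among them, and 123 with replicates 1 to 4, of which 29 were among the 54. In the 15 libraries the block gave 147 higher and 53 lower of 18015 genes. Of 37 cytokines and secretory factors 6 were higher, of 17 NF-kB feedback and adhesion genes 3, and of 21 plasminogen and coagulation genes 3. These lists had 0 lower. Of 12 epithelial markers 3 were lower and 0 higher, and of 55 cell cycle genes 0 passed. With the block in the 15 libraries NOS3, KRT18, MMP1, NFKBIA, CXCL8, THBD, ABI3BP, LYPD5 and SNAI1, which did not pass against control, also passed (NOS3 log2 1.68, adjusted p = 0.0173; the others from 0.00643 to 0.0294). Deviations of same-numbered libraries of control and ECM/MMC+ correlated at r = 0.594, −0.186 and 0.129 for replicates 2, 3 and 4, and 2 of 3 control and 1 of 3 ECM/MMC+ libraries correlated best with their own number. Not every pair was over 0.1, so the fit without the block was kept as the main one for these 2 groups. Over the group pairs of the 15 libraries, 23 of 30 same-numbered pairs were over 0.1, ranging from −0.186 to 0.677. Different-numbered pairs ran from −0.711 to 0.590. What the replicate number stands for was not tested. Against young matrix the count of 0 became 37 without a filter and was 0 under every other alternative, the block included. Against senescent medium 882 became 1532 with only the 2 groups, 1428 with the replicate block, 122 with replicates 1 to 4 and 411 to 658 without 1 library. The cause of these changes was not tested. Leaving out ribosomal and mitochondrial genes gave 56, 0 and 875. Limits are 3 libraries a group, calls of which 10 held whichever of the 6 libraries was left out, 9 called genes under 1 CPM, and overlapping genes whose reads cannot be told apart.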
